A study of Drosophila melanogaster with 8 samples.

Results

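Peptidoglycan recognition proteins (PGRPs) are the family by which flies detect or degrade peptidoglycan, the polymer of the bacterial cell wall. The rule named 10 PGRP genes of Drosophila melanogaster and took the array spots paired with exactly 1 gene. It found 6 spots of 5 genes, PGRP-SC2, PGRP-LB, PGRP-SB1, PGRP-LA and PGRP-LE, among 10658 genes measured. PGRP-LA had 2 spots and the other members 1 each. PGRP-SC1a and PGRP-SC1b, close copies of each other, shared 1 spot, which the rule left out, and PGRP-LC, PGRP-SA and PGRP-SD were not analysed here.

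The study assessed technical error with 8 spotted arrays, on each of which RNA of larvae was hybridised against RNA of adults. Both stages were of Canton S, a wild-type strain, with no treatment named, and each stage was a mixture of stages whose ages the labels do not give. Larvae were in channel 1 on replicates 1, 3, 6 and 8, and adults were in channel 1 on replicates 2, 4, 5 and 7. Larvae and adults were separate sources. The portions of a stage were all drawn from a master TRIzol homogenate and processed separately, so the arrays are technical replicates. A p-value here therefore measures technical spread alone. The RNA was of whole mixed stages, so fewer cells of a type and less RNA per cell cannot be told apart.

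Values below are turned log2 ratios. The sign was reversed where adults were in channel 1, and each array was centred on the median of its gene spots. If channel 1 was the numerator, a positive ratio means more RNA in larvae, and if channel 2 was, more in adults. Neither the labels nor the values settle which, so results are given by side, without a stage. Between arrays of opposite orientation the deposited values correlated at -0.81 to -0.51 over spots, and between arrays of the same orientation at 0.39 to 0.89. Before centring, the array medians of gene spots ran from -1.02 on replicate 8 to 0.05 on replicate 4, and the spread of gene spots was widest on replicate 7, with an SD of 0.96. Precision is limited by the number of arrays.

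The family divides by activity. Amidase members cut peptidoglycan and thereby weaken the signal it gives. Of these, PGRP-SC1a, PGRP-SC1b, PGRP-SC2 and PGRP-LB act in the gut, where they restrain the response to resident bacteria. Sensing members bind peptidoglycan, or regulate those that do, and start a signal. PGRP-LC and PGRP-LE feed the IMD pathway, which ends in the transcription factor Relish, while PGRP-SA and PGRP-SD feed the Toll pathway. PGRP-LA was counted with the sensing members, although its known part is to regulate IMD signalling in barrier epithelia.

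Of the 5 measured members, PGRP-SC2 passed the threshold on the negative side, PGRP-SB1 passed it on the positive side, and PGRP-LB, PGRP-LA and PGRP-LE did not pass. The threshold was a limma adjusted p of 0.05 over all genes. Among all 10658 genes 57.0% passed, 29.2% with a positive and 27.8% with a negative ratio. As deposited 9.76% passed with a positive and 56.8% with a negative ratio, and centred on all spots 19.3% and 34.8%. With 2 of 5 past it, the family was not called more often than the array as a whole. The median ratio of the 5 members was -0.20, beside -0.01 over all genes.

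**Figure D1:**
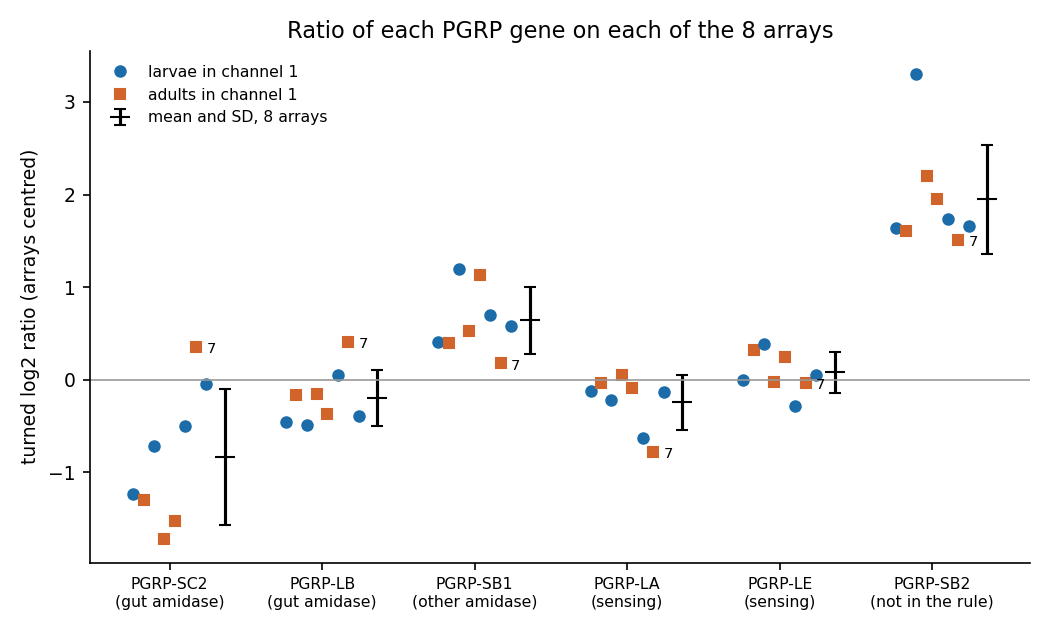
Turned log2 ratio (y axis) of each measured PGRP gene (x axis) on each of the 8 arrays, with circles for larvae in channel 1, squares for adults in channel 1, and the mean with SD beside them. The digit 7 marks replicate 7. PGRP-SC2 spans -1.73 to 0.35, all 8 points of PGRP-SB1 lie above 0, and PGRP-SB2, a relative outside the rule, lies highest.

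PGRP-SC2, a secreted amidase of the gut, had the largest ratio of the members. It stood at -1.24, -0.72, -0.50 and -0.05 on the 4 arrays with larvae in channel 1 (replicates 1, 3, 6 and 8). With adults in channel 1 it stood at -1.30, -1.73, -1.52 and 0.35 (replicates 2, 4, 5 and 7). It was thus below 0 on 7 of 8 arrays and above 0 on replicate 7, and the orientations overlapped. The mean was -0.84 ± 0.74 (SD, n = 8), a 1.79-fold difference with a 95% interval of 1.31-fold to 2.45-fold (limma adjusted p = 0.00526). Without replicate 7 the ratio was -1.07 and the adjusted p 2.6e-05. As deposited, before centring, PGRP-SC2 was negative on 8 of 8 arrays, between -1.67 and -0.46, with a smaller SD of 0.41 around a mean of -1.28.

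PGRP-LB, an amidase that acts on the peptidoglycan of Gram-negative bacteria in the gut and the blood, showed a small ratio. It stood at -0.46, -0.49, 0.05 and -0.40 with larvae in channel 1. With adults in channel 1 it stood at -0.17, -0.16, -0.38 and 0.40. It was below 0 on 6 of 8 arrays, with replicates 6 and 7 above. The mean was -0.20 ± 0.30 (SD, n = 8) with a 95% interval of -0.43 to 0.03 and a limma adjusted p of 0.123. Without replicate 7 it passed at -0.28 (adjusted p = 0.0165). With any other array left out it did not pass (limma adjusted p from 0.0666 to 0.301). Centred on all spots it passed at -0.34 (0.0232), and as deposited at -0.64 (0.00124), negative on 8 of 8 arrays. Its spot was among the dimmest of the array, at percentile 0.55 of genes by a brightness recovered from the ratios, and whether it stood above background was not tested.

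PGRP-SB1, a secreted amidase known from the fat body after infection, was the member on the positive side. It stood at 0.41, 1.20, 0.70 and 0.58 with larvae in channel 1. With adults in channel 1 it stood at 0.39, 0.53, 1.13 and 0.18. All 8 arrays were above 0, a state shared by 1 sign or the other in 41.7% of all genes. The mean was 0.64 ± 0.36 (SD, n = 8), a 1.56-fold difference with a 95% interval of 1.30-fold to 1.87-fold (limma adjusted p = 0.00103). The call rested on centring. As deposited the mean was 0.20 (adjusted p = 0.328), from -0.64 on replicate 7 to 1.03 on replicate 5, with 6 of 8 arrays above 0.

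PGRP-LA, the regulator of IMD signalling, stood at -0.13, -0.22, -0.63 and -0.14 with larvae in channel 1. With adults in channel 1 it stood at -0.04, 0.05, -0.09 and -0.78. It lay close to 0 on most arrays, and replicates 6 and 7 were lowest. The mean was -0.25 ± 0.30 (SD, n = 8) with a 95% interval of -0.48 to -0.01 and a limma adjusted p of 0.0719. As deposited it passed at -0.68 (0.00385), and centred on all spots at -0.38 (0.0342). Its 2 spots gave different sizes. The first averaged -0.41 ± 0.43 and passed in the limma fit of all spots (adjusted p = 0.0476), where 41.7% of the 20000 spots passed. The second averaged -0.08 ± 0.21 and did not pass (0.474). Within arrays the first was lower by 0.32 ± 0.34 on average and lower on 6 of 8 arrays (two-sided exact sign-flip permutation p = 0.0469). The labels do not say which transcripts of PGRP-LA each spot reports.

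PGRP-LE, a receptor that also detects peptidoglycan fragments inside cells, lay nearest to 0. It stood at -0.0005, 0.39, -0.29 and 0.05 with larvae in channel 1. With adults in channel 1 it stood at 0.32, -0.03, 0.24 and -0.04. The arrays split evenly, 4 above and 4 below 0. The mean was 0.08 ± 0.22 (SD, n = 8) with a 95% interval of -0.12 to 0.29 and a limma adjusted p of 0.477. With one array left out it ran from 0.02 (without replicate 3) to 0.14 (without replicate 6) and did not pass. Its direction depended on centring: it was -0.06 centred on all spots and -0.36 as deposited (adjusted p = 0.747 and 0.0579).

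The gut amidases were then set against the sensing members. With 2 measured genes in each class, the mean ratio of PGRP-SC2 and PGRP-LB was -0.52 ± 0.46 and that of PGRP-LA and PGRP-LE was -0.08 ± 0.23 (SD over 8 arrays). Gut amidases minus sensing members came to -0.78, -0.69, 0.23 and -0.18 with larvae in channel 1. With adults in channel 1 the differences were -0.87, -0.95, -1.03 and 0.79. The gut amidases were lower on 6 of 8 arrays and higher on replicates 6 and 7, so the mean difference of -0.44 ± 0.65 was smaller than the spread between arrays. Such a difference within an array does not change with centring. It came mainly from PGRP-SC2: with PGRP-LB left out it was -0.76, and with PGRP-SB1 counted as an amidase -0.05. Without replicate 7 it was -0.61.

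**Figure D2:**
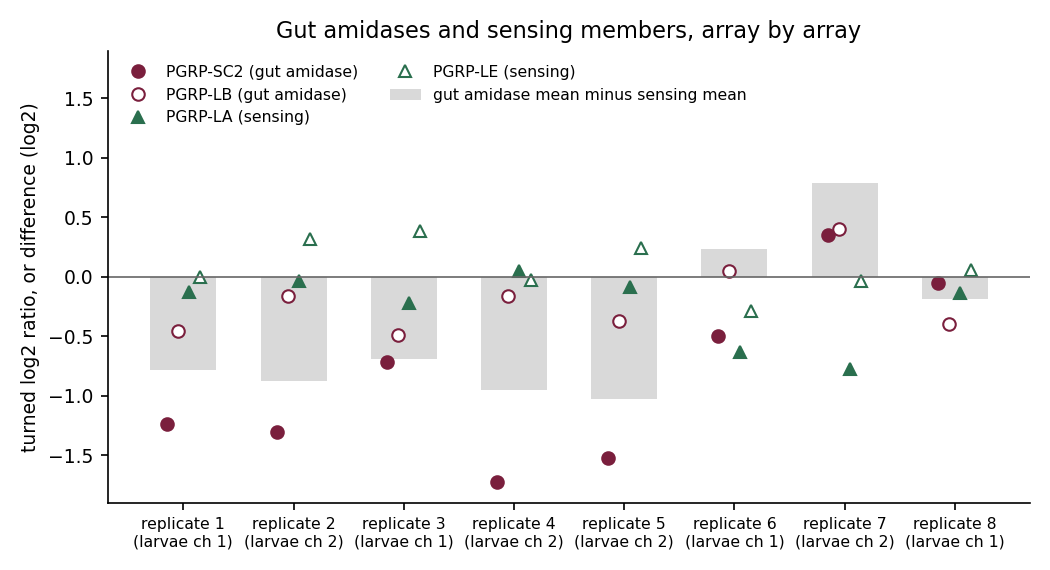
Turned log2 ratios (y axis) of the gut amidases (circles) and sensing members (triangles) on each array (x axis), with grey bars for the gut amidase mean minus the sensing mean. Bars lie below 0 on 6 of 8 arrays and reach 0.79 on replicate 7, where PGRP-SC2 and PGRP-LB both lie above PGRP-LA and PGRP-LE.

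All 10 pairs of members were compared within arrays with a two-sided exact sign-flip permutation test over the 8 arrays, whose smallest possible p is 0.00781, adjusted over the 10 pairs. None of the 4 pairs of a gut amidase with a sensing member passed. PGRP-SC2 was lower than PGRP-LE by 0.92 ± 0.83 on average and on 7 of 8 arrays (95% interval -1.61 to -0.23, adjusted exact p = 0.0558), and without replicate 7 this pair passed at -1.11 (0.0312). PGRP-SC2 minus PGRP-LA was -0.59 ± 0.98, with a 95% interval of -1.42 to 0.23 (adjusted exact p = 0.148). PGRP-LB minus PGRP-LE was -0.28 ± 0.46, with an interval of -0.67 to 0.11 (adjusted exact p = 0.146). PGRP-LB minus PGRP-LA was 0.05 ± 0.57, with an interval of -0.43 to 0.52 (adjusted exact p = 0.828).

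PGRP-SB1 stood apart from the other amidases and from the sensing members. It exceeded PGRP-LA by 0.89 ± 0.40 and PGRP-LE by 0.56 ± 0.32, each on 8 of 8 arrays. PGRP-SC2 minus PGRP-SB1 was -1.48 ± 0.91 and PGRP-LB minus PGRP-SB1 was -0.84 ± 0.59, each below 0 on 7 of 8 arrays. All 4 comparisons had an adjusted exact p of 0.0312, which held without replicate 7 and was 0.0521 to 0.0625 with any other array left out, where 7 arrays allow no exact p under 0.0156. The gut amidases did not separate from each other at this threshold: PGRP-SC2 minus PGRP-LB was -0.64 ± 0.64, lower on 7 of 8 arrays (adjusted exact p = 0.0558). Of the sensing members, PGRP-LA was below PGRP-LE on 7 of 8 arrays, with a difference of -0.33 ± 0.26 (adjusted exact p = 0.0312), which with the PGRP-LA spot of smaller residual SD was -0.17 (0.139), and which did not pass with any 1 array left out (0.0521 to 0.0625). In order of mean ratio the members ran PGRP-SC2, PGRP-LA, PGRP-LB, PGRP-LE and PGRP-SB1. Only the last step, from PGRP-LE to PGRP-SB1, passed between neighbours of that order.

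The technical error, the quantity the study set out to assess, differed among members. The residual SD of the gene fit, with 6 residual degrees of freedom, had a median of 0.30 over all genes. PGRP-SC2 reached 0.76, at percentile 97.3 of genes. PGRP-SB1 was at 0.37, PGRP-LA at 0.32, PGRP-LB at 0.30 and PGRP-LE at 0.23, between percentiles 29.0 and 69.6. The member with the largest ratio thus had the widest spread of the 5 on centred arrays. The plain SD over centred arrays was likewise widest for PGRP-SC2, at 0.74, beside 0.22 to 0.36 for the other members. As deposited this plain SD was not widest for PGRP-SC2. It was 0.41, beside 0.39 for PGRP-LB, 0.46 for PGRP-LE, 0.57 for PGRP-SB1 and 0.59 for PGRP-LA.

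**Figure D3:**
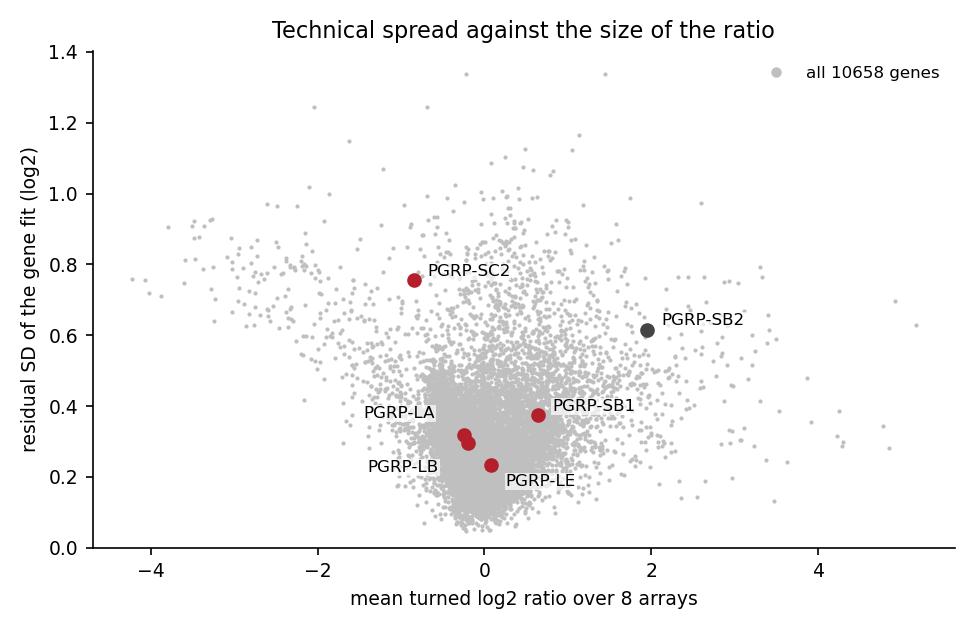
Residual SD of the gene fit (y axis, log2) against the mean turned log2 ratio (x axis) for all genes (grey) and the PGRP genes (coloured points). PGRP-SC2 lies at a residual SD of 0.76, while the other 4 members lie between 0.23 and 0.37 near the bulk of the genes.

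The swap of channels gave a repeat of each measurement. PGRP-SC2 averaged -0.63 ± 0.49 with larvae in channel 1 and -1.05 ± 0.95 with adults in channel 1 (SD, n = 4 each). PGRP-SB1 averaged 0.72 ± 0.34 with larvae in channel 1 and 0.56 ± 0.41 with adults in channel 1. The orientations of every member overlapped, and the largest difference between them was 0.42, for PGRP-SC2 (limma adjusted p of the dye term = 0.919). For the other members the adjusted p lay between 0.912 and 0.973. Over all genes 0.00% passed for the dye term in limma, with 481 genes under an unadjusted p of 0.05. With array weights 1177 genes passed, PGRP-SC2 among them at a difference of 0.99 (limma adjusted p = 0.0203). Those weights ran from 0.15 on replicate 7 to 7.85 on replicate 5, so weighted results here and below lean on replicate 5.

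PGRP-SB2, a secreted relative next to PGRP-SB1 in the RefSeq gene table of Release 6, was the single measured gene of 3 further PGRPs listed and is not a member under the rule. It stood at 1.64, 3.30, 1.73 and 1.66 with larvae in channel 1, and at 1.60, 2.19, 1.95 and 1.51 with adults in channel 1. All 8 arrays were above 0, and replicate 3 was far above the rest. The mean was 1.95 ± 0.59 (SD, n = 8), a 3.86-fold difference (limma adjusted p = 4.47e-06). PGRP-SB2 exceeded PGRP-SB1 on 8 of 8 arrays, by 1.31 ± 0.40 on average (two-sided exact sign-flip permutation p = 0.00781, the smallest possible). The labels do not say whether the spots tell these related genes apart.

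Of the IMD pathway, which PGRP-LE and PGRP-LA act upon, 14 of 18 listed genes were measured. Above 0 there were 8 past the threshold, below 0 there was 1, and 5 did not pass, around a median of 0.22, beside 29.2% and 27.8% of all genes. As deposited 0 passed above and 5 below, around a median of -0.21, beside 9.76% and 56.8% of all genes. Centred on all spots the counts were 5 and 2, beside 19.3% and 34.8% of all genes. The side of these small ratios thus depended on centring. Without replicate 7 the count below 0 was 2. The 4 largest were Uev1A (0.59 ± 0.48), a ubiquitin-conjugating factor, Diap2 (0.55 ± 0.28), a ubiquitin ligase, pirk (-0.55 ± 0.25), and POSH (0.47 ± 0.32), another ubiquitin ligase. Rel, which encodes the transcription factor Relish, was at 0.45 ± 0.21 and the caspase gene Dredd at 0.44 ± 0.17. pirk, a brake on signalling that acts on PGRP-LC and Imd, was below 0 on every array, from -0.90 to -0.21 (limma adjusted p = 0.000811). Of all genes 41.7% kept 1 sign or the other on every array. Not past the threshold were Fadd (-0.07), Tab2 (-0.19), IKKbeta (0.05), casp (0.14) and CYLD (-0.12).

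PGRP-SA and PGRP-SD feed the Toll pathway, of which 13 of 17 listed genes were measured, not all of them specific to these PGRPs. Above 0 there were 9 past the threshold and below it 0, beside 29.2% and 27.8% of all genes, and the list's median was 0.28. As deposited 2 passed above 0 and 3 below, around a median of -0.15, beside 9.76% and 56.8% of all genes. Centred on all spots 3 passed above 0 and 0 below, beside 19.3% and 34.8% of all genes. The largest were nec (0.99 ± 0.34), a serpin that inhibits the cascade, Tl (0.88 ± 0.28), the receptor, cact (0.70 ± 0.33), the cytoplasmic inhibitor, and pll (0.39 ± 0.26), a kinase. GNBP3 (0.02), grass (-0.002), psh (-0.07) and tub (-0.16) did not pass. Antimicrobial peptides, the end products of both pathways, were measured for 6 genes. Of these 4 passed above 0 and 0 below it, beside 29.2% and 27.8% of all genes. As deposited 3 passed above 0 and 1 below, beside 9.76% and 56.8% of all genes. Drs stood at 2.60 ± 0.51, AttB at 1.02 ± 0.39, Mtk at 0.92 ± 0.33 and DptB at 0.33 ± 0.25. AttD (0.04 ± 0.19) and Def (0.23 ± 0.38) did not pass. DptB and AttB are known targets of IMD signalling and Drs of Toll, and on centred arrays PGRP-SB1 and PGRP-SB2 lay on the same side as these. As deposited DptB stood at -0.11, and PGRP-SB1 at 0.20 did not pass. Whether the ratios of the peptides and the PGRP genes are related was not tested.

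**Figure D4:**
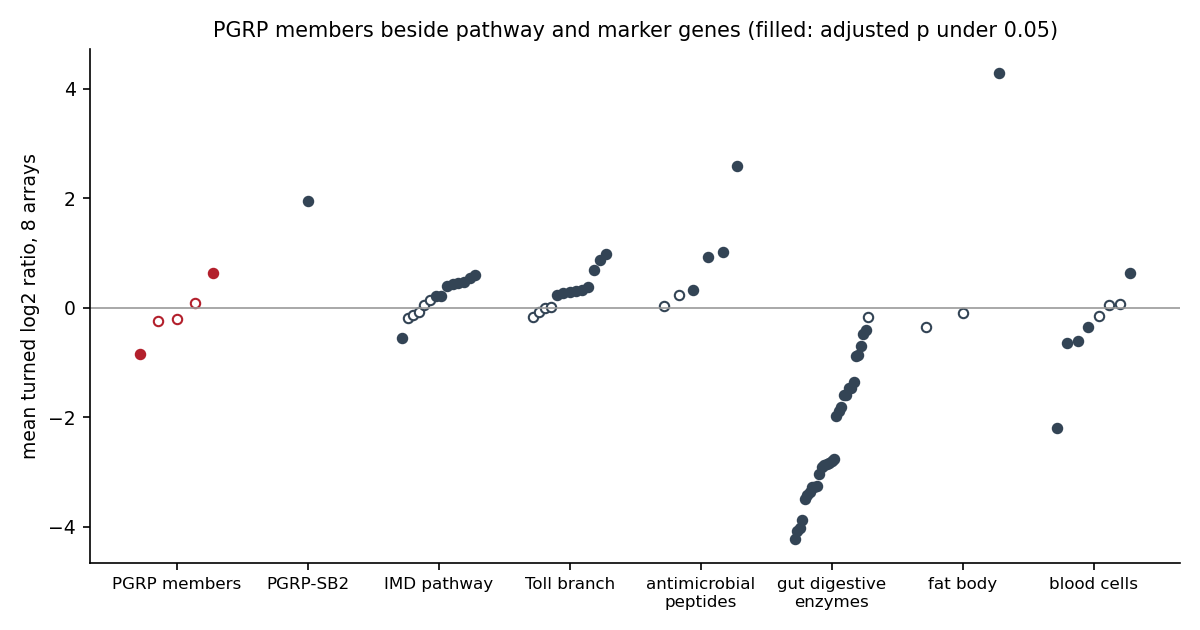
Mean turned log2 ratio over 8 arrays (y axis) of each gene of the PGRP members, PGRP-SB2, the pathway lists and the marker lists (x axis), with filled points past an adjusted p of 0.05. The members span -0.84 to 0.64, inside the range of the gut digestive enzymes on the negative side and of the antimicrobial peptides on the positive side.

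Digestive enzymes mark the gut, the site of PGRP-SC2 and PGRP-LB. Of 31 measured genes 30 passed below 0 and 0 above it, beside 27.8% and 29.2% of all genes, and their median was -2.79. As deposited, and also centred on all spots, 31 passed below 0 and 0 above it. Of all genes 56.8% and 34.8% passed below 0 in these settings. The largest were Jon25Bi (-4.23 ± 0.81), Jon99Fii (-4.07 ± 0.74), Jon25Bii (-4.02 ± 0.72) and Jon25Biii (-3.88 ± 0.77), all serine proteases. PGRP-SC2 shared their side, but on each array at least 22 of the 31 enzymes lay below it. On replicate 7 the enzymes' median was closest to 0, at -1.74, against -3.50 on replicate 4, and PGRP-SC2 was likewise highest on replicate 7 and lowest on replicate 4. This order was not particular to gut genes. Of the fat body list, Fbp1 and Fbp2 were also lowest on replicate 4 and highest on replicate 7. The third measured gene of that list, apolpp, was highest on replicate 7 but lowest on replicate 1. PGRP-LB had at least 29 of the 31 enzymes below it on every array. The part of gut content in the ratio of PGRP-SC2 was not tested.

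The genes whose 8 ratios lay closest to those of PGRP-SC2 were ranked among 10657 others by Euclidean distance. They were veil (distance 0.28), CG12116 (0.35), obst-E (0.53), Vha16-1 (0.53) and PCB (0.54). veil encodes an extracellular nucleotidase, obst-E a chitin-binding protein of the cuticle, Vha16-1 a subunit of the vacuolar proton pump and PCB pyruvate carboxylase. Their mean ratios ran from -0.82 to -0.72. All points share the arrays, so this likeness includes the arrays' own deviations.

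**Figure D5:**
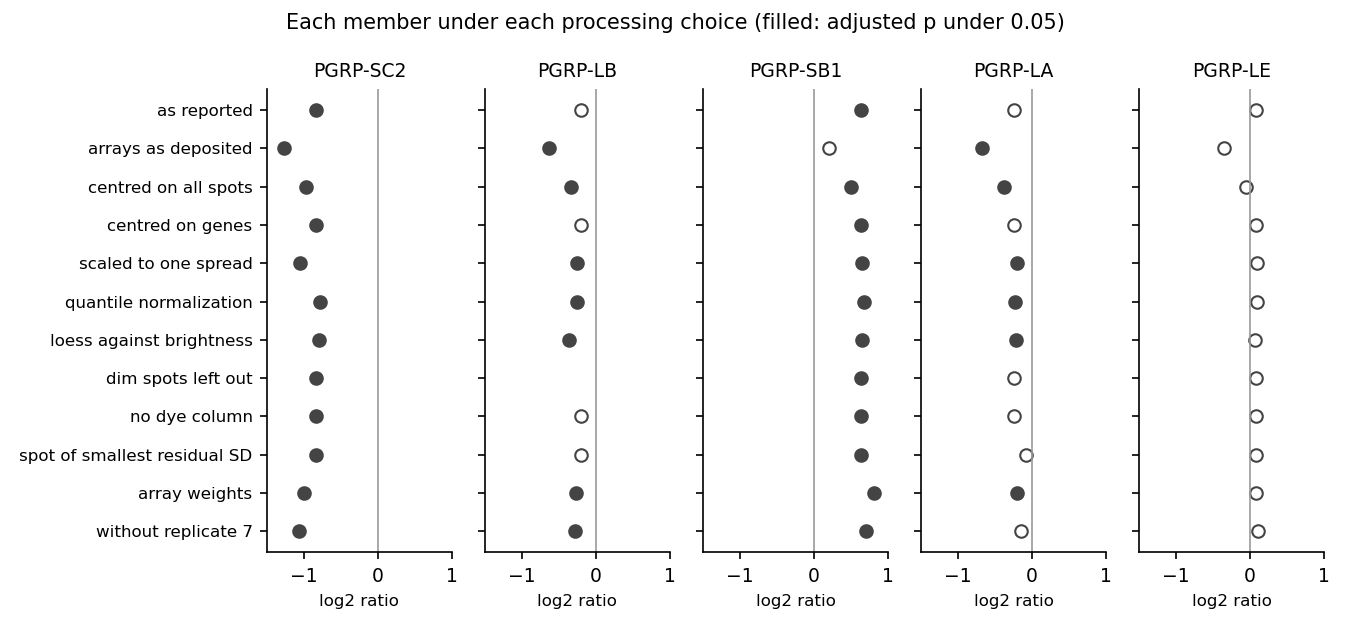
Ratio (x axis, log2) of each member under each processing choice (y axis), with filled points past an adjusted p of 0.05. PGRP-SC2 is filled in every row, PGRP-SB1 in every row but the arrays as deposited, and PGRP-LE in none; PGRP-LB has no value where dim spots were left out.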

How the data were processed

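Per the labels, scans were made with GenePix and spots quantified with Spot version 2.0; the descriptions name polyA RNA, the molecule field total RNA. The deposited values are log2 ratios of the channels, a scale read from the values: 100% of them matched a quotient of 2 integers up to 58096 in base 2 (relative tolerance 1e-12), against 0.882% in base 10. The labels name no background handling, dyes or numerator channel. The probe table paired 12246 of 20000 spots with 1 gene and 86 with several, and 7668 were unnamed here. By gene ID 11771 single-gene spots got a current symbol from RefSeq and 475 kept the older one.

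Spots of a gene were averaged and genes fitted with limma 3.58.1 in R 4.3.3, with a stage and a dye column and Benjamini-Hochberg adjustment. The fit was tested on simulated data. Pairs of members were compared with exact sign-flip tests, added after the data were examined. Python 3.11.15, numpy 2.4.6, pandas 2.3.3, scipy 1.17.1 and matplotlib 3.10.9 did the rest. Brightness is the mean log2 of those integers, a lower bound. Classes put PGRP-SB1 apart from the gut amidases.

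The members and lists were chosen with earlier results of these data known. Named genes were every measured PGRP gene, the 4 largest past the threshold of each list, the members of the IMD and Toll lists not past it, and the 5 genes nearest to the member with the largest ratio. Rel, Dredd, AttD, Def, Fbp2 and apolpp, outside that rule, were named after their values were seen. Alternatives covered centring, scaling, quantile normalization, a loess curve on brightness, dim spots, the dye column, the choice of spot, array weights and each array left out.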

Additional observations from a re-analysis of the deposited data

Results flagged for a closer look

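Among the 4 arrays with adults in channel 1, replicate 7 lay far from the others for PGRP-LA, at -0.78, and for gut amidases minus sensing members, at 0.79. Among the 4 arrays with larvae in channel 1, replicate 3 lay far from the others for PGRP-SB2, at 3.30. In all, 14 groups of 4 arrays were looked at, and chance marks about 1 in 20 groups. The 3 values come from 2 arrays and are not independent, since PGRP-LA is part of the class difference. The causes were not tested.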

How the results depend on the processing

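PGRP-SC2 kept its side and stayed past the threshold in all 18 alternatives, from -1.28 to -0.73. PGRP-SB1 did so in 17 and stood at 0.20 (adjusted p = 0.328) as deposited. PGRP-LB and PGRP-LA kept their side in every alternative run but passed in several: as deposited (-0.64 and -0.68), centred on all spots (-0.34 and -0.38), scaled to one spread (-0.26 and -0.20), after quantile normalization (-0.26 and -0.22), after the loess curve (-0.37 and -0.22) and with array weights (-0.28 and -0.21). With one array left out PGRP-LB ran from -0.28 to -0.15 and PGRP-LA from -0.29 to -0.15. PGRP-LE turned to -0.36 as deposited and -0.057 centred on all spots, and ran from 0.02 to 0.14 with one array left out. The counts of all genes past the threshold were 3110 positive and 2967 negative, 1040 and 6059 as deposited, and 2059 positive centred on all spots; the dye count was 0, and 1177 with array weights. Centring moved the median of all genes to -0.45 as deposited and -0.15 on all spots. Gut amidases minus sensing members kept its side in the 20 alternatives, from -0.76 to -0.05. Centring and the dye column could not change this mean of differences within arrays, which stayed at -0.44 there. Array weights were not applied to this mean, so its unchanged -0.44 in that alternative does not test them. PGRP-LB minus PGRP-LA was 0.05, and turned to -0.062 when scaled, -0.037 after quantile normalization, -0.15 after the loess curve and -0.11 with the spot of smallest residual SD, and ran from -0.12 to 0.10 with one array left out. PGRP-LB minus PGRP-LE passed after the loess curve (-0.44). PGRP-SC2 minus PGRP-LE ran from -1.11 to -0.80 with one array left out, and passed at an unchanged -0.92 where PGRP-LB was dropped as dim and fewer pairs were adjusted. PGRP-SC2 minus PGRP-LA kept its side and did not pass in any alternative, from -0.84 to -0.42 with one array left out. The 6 other pairs kept their side with one array left out; with 7 arrays the smallest exact p is 0.0156, and the adjusted exact p of the 5 that had passed ran from 0.0312 to 0.0625. The causes of the changes were not tested. No paired analysis was possible because the orientations share no replicate number. Counting PGRP-SC1a and PGRP-SC1b as 1 member was not run, since neither had a spot of its own, and protein and promoter features were not analysed here.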

Other observations

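Markers of the fat body and of blood cells, both sites of PGRP activity, were mixed. In the fat body list 3 of 7 genes were measured. Fbp1, the receptor for larval serum proteins, stood at 4.30 ± 0.29, while Fbp2 (-0.35 ± 0.97) and apolpp (-0.09 ± 0.83) did not pass. Both passed below 0 as deposited, where 56.8% of all genes did, and after the loess curve. Without replicate 7 or with array weights 1 of them did. Of all 10658 genes, 3224 passed below 0 after the loess curve, 3070 without replicate 7 and 3679 with array weights. In the blood cell list 8 genes were measured, 4 of them past the threshold below 0 and 1 above, beside 27.8% and 29.2% of all genes. As deposited the counts were 6 and 0, beside 56.8% and 9.76% of all genes. With dim spots left out 2 passed below 0, as did 2475 of all the genes then kept. PPO1, a prophenoloxidase of crystal cells, stood at -2.20 ± 0.82, Hml, a secreted clotting protein, at -0.63 ± 0.31, PPO2 at -0.61 ± 0.73, and Pxn, a peroxidase of the extracellular matrix, at 0.64 ± 0.46. Their part in the ratios of the PGRP genes was not tested.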
